A study of Homo sapiens with 60 samples.

Results

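The genes described here are 10 enzymes that make, lengthen, desaturate and activate fatty acids: ACLY, ACACA, FASN, SCD, FADS1, FADS2, ELOVL5, ELOVL6, ACSL3 and ACSS2. They were chosen by name, with earlier results of these data known, and all 10 were found among the 60675 genes of the count table. Their mRNA was followed through 60 RNA-seq libraries of A549, an established human lung carcinoma cell line, in 25 groups sampled after 24 h. The vehicle group (n = 3) received DMSO, at 0.1% per the sample labels and at 2% per the series text. The sources used here do not settle this difference. The sample labels give no DMSO level for the extract groups, so whether solvent was matched cannot be told from them. Sayeok-tang (n = 3 per dose) and Bojungikgi-tang (n = 2 per dose), herbal formulas extracted in hot water, were given at 500, 100 and 20 µg/mL. Ethanol extracts of fresh ginger, labelled Zingiberis Rhizoma Recens, of dried ginger, labelled Zingiberis Rhizoma, and of Pinellia (Pinelliae Tuber) had the same doses, each in 3 libraries. Scutellaria (Scutellariae Radix, ethanol, n = 3) was given at 190, 38 and 7.6 µg/mL. Coptis (Coptidis Rhizoma, ethanol) at 110, 22 and 4.4 µg/mL and Zizyphus (Zizyphi Fructus, ethanol) at 500, 100 and 20 µg/mL had 1 library per dose. The doses of each extract are called high, medium and low below.

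In de novo synthesis, cytosolic citrate is split to acetyl-CoA by ACLY, acetyl-CoA is carboxylated to malonyl-CoA by ACACA, and FASN joins these units into palmitate. Elongases such as ELOVL6 then lengthen the chain, SCD places the double bond that makes monounsaturated fatty acids, and FADS1, FADS2 and ELOVL5 act on polyunsaturated chains. Most of these genes are textbook targets of the sterol regulatory element binding proteins SREBP-1 and SREBP-2, whose cleavage in the secretory pathway is held back by the INSIG proteins. Many carcinoma lines, A549 among them, make fatty acids even when lipid is supplied in serum.

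Library totals ran from 17.51 M to 38.54 M counts, and mitochondrial transcripts took 8.29 to 15.92% of counts, highest in the medium and low Coptis libraries (15.92 and 14.98%). All 5 epithelial markers were detected (KRT7, KRT8, KRT18, CDH1 and, at 3.84 to 6.54 CPM, EPCAM), as were all 5 genes of the NRF2 programme that the KEAP1 mutation of A549 keeps on. Alveolar type II markers were at or near 0, with SFTPA1, SFTPB, SFTPC and NKX2-1 summing to at most 0.311 CPM in any library. Of 16 markers of leukocytes, endothelium, fibroblasts, adipocytes and hepatocytes, 4 had a median of at least 1 CPM (CD14, COL1A1, COL3A1 and ACTA2), while CD3E and ADIPOQ were at 0 in all 60 libraries. CPM is a count scaled to the TMM-adjusted library total. The summed epithelial markers stood at 8334 to 8690 CPM in vehicle, and every extract group at every dose lay wholly below that range except medium fresh ginger (7337 to 8625 CPM). At the high dose they stood at 6655 to 6918 CPM in Sayeok-tang, 7205 to 7293 in Bojungikgi-tang and 7288 to 7890 in Scutellaria, and low doses were below vehicle too, as in dried ginger (7144 to 7253). Summed markers of other cell types were 41.7 to 44.7 CPM in vehicle, 33.6 to 35.7 in high-dose Sayeok-tang and 31.8 to 35.0 in high-dose Scutellaria. The part of these levels in the results below was not tested. In 2 fresh ginger groups replicate 2 stood apart. The chi-square per gene between replicates was 12.63 and 9.82 with it and 6.04 without it at the medium dose, where it was the shallowest library, and 9.9 and 10.88 with it and 4.21 without it at the low dose, where it had the highest mitochondrial share of its group (11.68%). Vehicle replicate 3 stood apart too, at 6.4 and 5.49 with the other vehicle libraries, against 2.96 between those. Dried ginger replicate 3 did so at the high (4.31 and 5.21 against 1.87), medium (7.18 and 6.57 against 2.47) and low dose (5.1 and 7.81 against 2.74). Since the labels do not say that replicates were separate cultures, p-values measure only the spread between these libraries. All 60 titles carry 1 batch name. The sample descriptions number the extracts by sets 8 to 11 and give the vehicle none of these numbers, without saying what they stand for, so treatment and any handling tied to a set cannot be told apart in comparisons with vehicle. The same 3 vehicle libraries stand behind every such comparison.

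Promoter sequences are shown for 3 members with different behaviour: SCD and ACSL3, whose highest levels were in high-dose Scutellaria, and ACLY, which was called in 1 of 18 comparisons with vehicle, as lower. Each is the stretch upstream of the RefSeq start (GRCh38.p14) that holds no annotated exon, written 5′ to 3′, with capitals marking every CCAAT box, GC box (GGGCGG) or their reverse complements. The SCD stretch is chr10:100346983-100347123 on the plus strand, the ACSL3 stretch is chr2:222860786-222860933 on the plus strand, and the ACLY stretch is chr17:41919023-41919272 on the minus strand.
SCD: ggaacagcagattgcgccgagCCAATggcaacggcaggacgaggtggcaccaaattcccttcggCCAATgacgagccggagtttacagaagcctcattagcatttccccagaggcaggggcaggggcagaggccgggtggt
ACSL3: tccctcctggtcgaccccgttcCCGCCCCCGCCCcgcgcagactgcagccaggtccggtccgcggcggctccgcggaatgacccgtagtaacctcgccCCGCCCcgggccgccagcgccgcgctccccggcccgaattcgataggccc
ACLY: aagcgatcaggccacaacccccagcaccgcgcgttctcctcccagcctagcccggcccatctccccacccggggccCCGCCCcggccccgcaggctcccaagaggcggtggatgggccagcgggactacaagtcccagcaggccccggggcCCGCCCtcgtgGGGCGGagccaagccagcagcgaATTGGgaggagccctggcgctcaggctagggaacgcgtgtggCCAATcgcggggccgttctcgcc
The SCD stretch holds 2 CCAAT boxes and no GC box, the ACSL3 stretch 3 GC boxes and no CCAAT box, and the ACLY stretch 2 CCAAT boxes and 3 GC boxes. The rest of the 250-base windows of SCD and ACSL3, which overlaps annotated exons and is not shown, adds 2 GC boxes and 1 CCAAT box. CCAAT and GC boxes bind NF-Y and Sp1, the usual partners of SREBP. RefSeq promoters were matched for 9 of 10 members, FASN being the one not matched. ACLY, ACACA, FADS2 and ACSS2 have several RefSeq starts, and a member was counted when any of its windows held the motif. The shares are per promoter, so members and shares are not in like units, which can raise the member counts. In the 250 bases before the start, searched on both strands, CCAAT was found in 6 of these 9 members (ACLY, ACACA, SCD, ELOVL5, ACSL3 and ACSS2) and in 32.0% of all 35116 promoters. GGGCGG was found in 8 of 9 members, all but ELOVL5, against 42.6% of promoters, and the E-box CACGTG in ELOVL5 alone, against 6.34%. The sterol regulatory element consensus TCACNCCAC was in none of the 9 and in 0.883% of promoters. No match to 1 motif overlapped a match to another in these windows.

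The members lie on 7 chromosomes (GENCODE 29, GRCh38). ACLY (ENSG00000131473, 41866908 to 41930542), ACACA (ENSG00000278540, 37084988 to 37406818) and FASN (ENSG00000169710, 82078333 to 82098332) are on the minus strand of chromosome 17. SCD (ENSG00000099194) spans 100347124 to 100364834 on the plus strand of chromosome 10, and ACSL3 (ENSG00000123983) spans 222860934 to 222944639 on the plus strand of chromosome 2. FADS1 (ENSG00000149485, 61799625 to 61829318, minus strand) and FADS2 (ENSG00000134824, 61792980 to 61867354, plus strand) are head to head on chromosome 11, with RefSeq starts 599 to 800 bases apart. The whole 29694-base span of FADS1 lies inside that of FADS2, and expected counts of both were not whole numbers in 47 of 60 libraries. Those of ACLY were not whole in 60 of 60 and those of SCD in 2, while the other 6 members were whole throughout, so ACLY may share reads too, with a partner that was not identified here. The library kit keeps strand, but whether counting used it is not given in the sources used here, so the values of FADS1, FADS2 and ACLY are uncertain as far as reads were shared. ELOVL5 (ENSG00000012660, chromosome 6, 53267398 to 53349179, minus strand), ELOVL6 (ENSG00000170522, chromosome 4, 110045846 to 110199199, minus strand) and ACSS2 (ENSG00000131069, chromosome 20, 34872146 to 34927962, plus strand) complete the set.

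Per kilobase of exon in vehicle, SCD (176 ± 5.25 CPM per kb, SD, n = 3) and ACLY (143 ± 3.57) were the most abundant members. FASN (57.2 ± 2.23), ELOVL5 (42.7 ± 0.995), FADS2 (37.5), FADS1 (30.7 ± 0.869), ACSL3 (30.0 ± 0.83) and ACACA (17.6) followed. ELOVL6 (4.8 ± 0.161) and ACSS2, which makes acetyl-CoA from acetate (3.11 ± 0.0901), were lowest. FADS1 and ACSL3 did not differ beyond their spread, while all other neighbours in this order were separated by more than it. With the longest transcript as the length instead, FADS2 (81.5) and FADS1 (69.4) came above FASN (62.5) and ELOVL5 (52.9), while SCD (176) and ACLY (172), and ACSS2 (5.47) and ELOVL6 (5.43), did not differ beyond their spread.

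All 10 members passed the filter on low counts in every fit, and 18 extract and dose groups with replicates were tested against vehicle by edgeR's quasi-likelihood test with Benjamini-Hochberg adjustment over all genes. FADS1 was higher in 14 of these 18 comparisons, SCD in 12, ACACA in 10, ELOVL6 in 7 and ACSL3 in 3. FADS2 rose in 2 and fell in 1, FASN rose in 1 and fell in 1, and ACSS2 rose in 1. ACLY and ELOVL5 fell in 1 and 2 comparisons and were not called higher by this test. With DESeq2, ACLY was called higher in high-dose Pinellia (0.08, adjusted p 0.0162) and medium-dose Scutellaria (0.08, 0.00972). SCD fell in 1, the high dose of dried ginger. All 18 comparisons share the same 3 vehicle libraries, so these tallies are not independent. Many of the FADS1 and SCD calls were lost when 1 library was left out, as given below. Of all genes, 0.77 to 40.3% were called per comparison with vehicle. The changes of the members were small, between -0.46 and 0.68 on the log2 scale. In RNA from whole cultures, fewer cells with a transcript and less transcript per cell cannot be told apart.

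**Figure D1:**
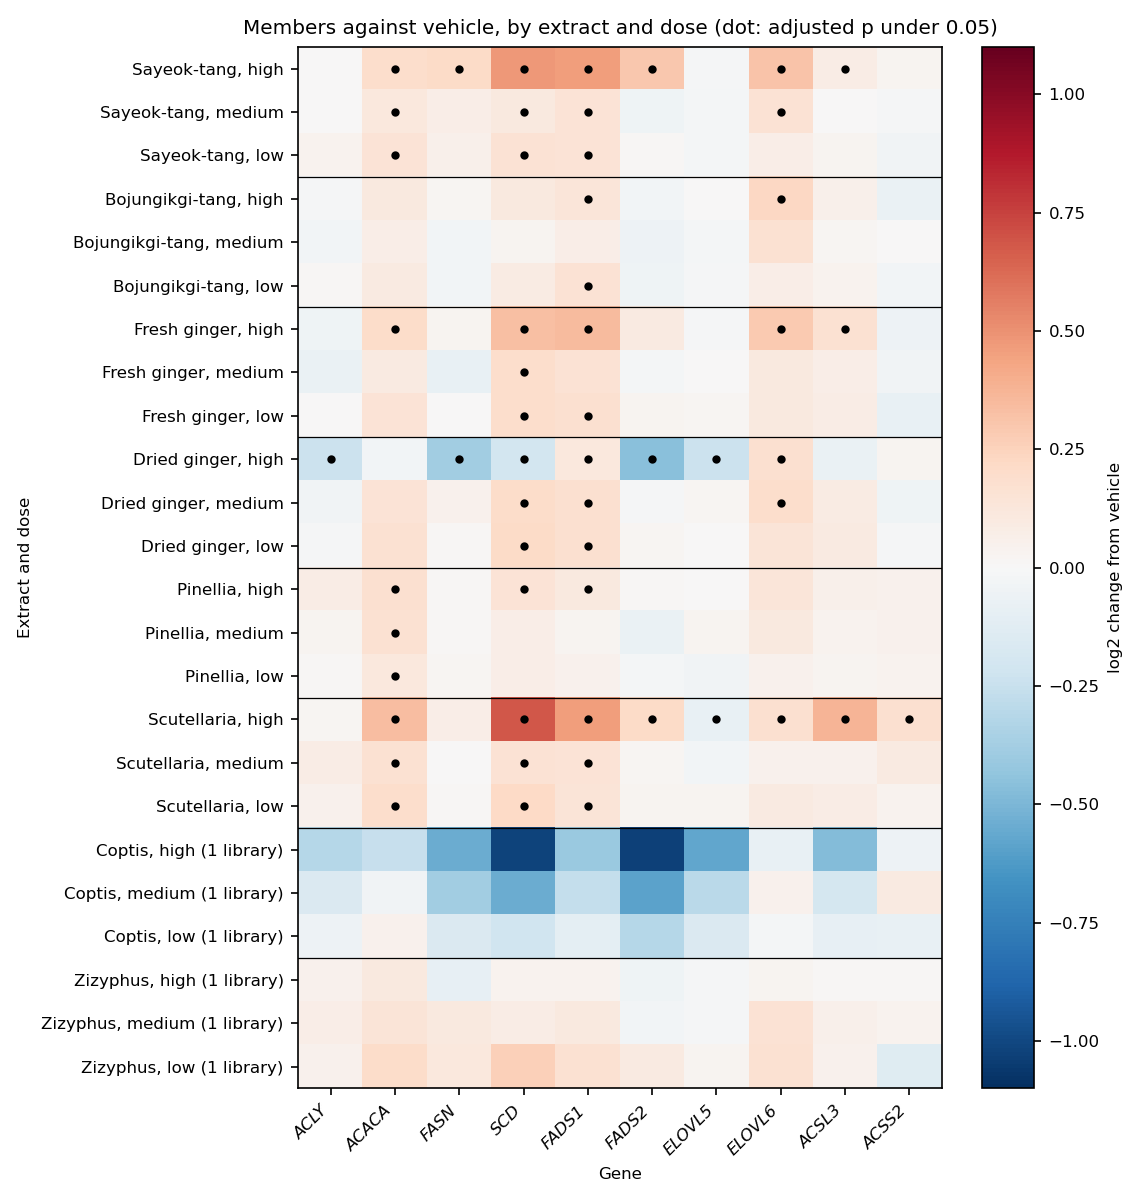
Log2 change of the 10 members (columns) from vehicle for every extract and dose (rows), with a black dot where edgeR's adjusted p was under 0.05; rows of Coptis and Zizyphus are ratios of 1 library to the vehicle mean, with no test. SCD and FADS1 carry the most dots, high-dose dried ginger and Coptis are blue for FADS2 and FASN, and high-dose Scutellaria has the deepest red at SCD.

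With Scutellaria at 190 µg/mL most members were higher than in vehicle. Of the 10 members, 7 rose (ACACA, SCD, FADS1, FADS2, ELOVL6, ACSL3 and ACSS2) and 1, ELOVL5, fell. Over all 16582 genes tested, 40.3% were called and 20.2% were called higher, and the median log2 change was 0.19 for the members and 0.008 for all genes. At 38 and 7.6 µg/mL, 3 members rose at each dose, ACACA, SCD and FADS1 both times, against 8.9% and 8.89% of genes called; FADS1 at the low dose was lost without Scutellaria replicate 1 (edgeR adjusted p 0.0661), and without vehicle replicate 1 ACLY was also called at the medium dose (0.0479). Between the high and the low dose, without the vehicle libraries' levels, 5 members rose (ACACA, SCD, FADS1, FADS2 and ACSL3) and ELOVL5 fell, against 31.0% of genes called and 15.5% called higher. The call of ACSS2 was lost without vehicle replicate 2 or Scutellaria replicate 1 (adjusted p 0.0825 and 0.133) and with DESeq2 (0.0699). That of ELOVL5 was lost without vehicle replicate 1 or 2 or Scutellaria replicate 1 (0.143, 0.095 and 0.272), without the filter on low counts (0.0768) and in 1 fit of all 60 libraries (0.0501), and its fall from the low dose without replicate 1 of either dose (0.104 and 0.106) or without the filter (0.0551).

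With Sayeok-tang at 500 µg/mL 7 members were also higher than in vehicle and none lower: ACACA, FASN, SCD, FADS1, FADS2, ELOVL6 and ACSL3. Of 16721 genes tested, 18.9% were called and 9.39% called higher, with a median of 0.2 for the members and -0.001 for all genes. At 100 µg/mL 4 members rose (ACACA, SCD, FADS1 and ELOVL6) against 10.8% of genes called, and at 20 µg/mL 3 rose (ACACA, SCD and FADS1) against 8.34%. The high dose exceeded the low dose in 5 members (FASN, SCD, FADS1, FADS2 and ELOVL6), against 7.58% of genes called and 3.82% called higher. The rise of ACSL3 at the high dose was lost without vehicle replicate 1 or 3, without any 1 of the Sayeok-tang libraries (adjusted p 0.0751 to 0.15) and without the filter on low counts (0.107). Of the medium-dose calls, ACACA was lost without vehicle replicate 3 or Sayeok-tang replicate 1 or 3 (0.209, 0.164 and 0.0956), ELOVL6 without vehicle replicate 2 or Sayeok-tang replicate 3 (0.0899 and 0.0812), and SCD without vehicle replicate 3 or Sayeok-tang replicate 1 (0.0891 and 0.12). In 1 fit of all 60 libraries ACACA (0.106) and SCD (0.0636) were not called there either. The low-dose call of ACACA was lost without vehicle replicate 3 (0.0657).

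With Bojungikgi-tang, the other formula, few members differed from vehicle at the same doses. At 500 µg/mL FADS1 and ELOVL6 rose, against 3.73% of genes called, at 100 µg/mL no member was called against 1.94%, and at 20 µg/mL FADS1 rose against 6.94%. No member differed between its high and low doses, where 0.712% of genes were called. With 2 libraries per dose, the ELOVL6 call was lost without Bojungikgi-tang replicate 2 (adjusted p 0.0749) and the FADS1 call at the high dose without vehicle replicate 2 or 3 or either extract library (0.052 to 0.293), without the filter (0.0584) or in 1 fit of all 60 libraries (0.101). Without vehicle replicate 1, SCD was called at the high dose (0.0498) and ELOVL6 at the medium dose (0.036). SCD was also called at the high dose with the replicate block (0.0459) and with DESeq2 (0.0417). At the low dose, FADS1 was lost without Bojungikgi-tang replicate 3 (0.0641).

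Set against each other at 500 µg/mL, Sayeok-tang had more FASN, SCD, FADS1 and FADS2 than Bojungikgi-tang, 4 members higher and none lower. Of all genes 2.05% were called in this comparison and 1.09% called higher. SCD was higher by 0.37 ± 0.04 (log2, SE; edgeR adjusted p 4.59e-09), FADS1 by 0.33 ± 0.03 (2.27e-08), FADS2 by 0.33 ± 0.03 (2.97e-08) and FASN by 0.2 ± 0.04 (0.0028). These 4 enzymes are the synthase and the 3 desaturases of the set. FASN differed no longer without Bojungikgi-tang replicate 3 (0.28), whose 511 CPM contrasts with 573 CPM in replicate 2. For ACACA and ELOVL6 the differences were 0.07 ± 0.04 and 0.08 ± 0.05 and were not called.

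With fresh ginger at 500 µg/mL 5 members were above vehicle, ACACA, SCD, FADS1, ELOVL6 and ACSL3. Of 16628 genes, 13.4% were called and 6.21% called higher. At 100 µg/mL only SCD was called, against 0.77% of genes, and at 20 µg/mL SCD and FADS1, against 6.48%. From the low to the high dose FADS1 and ELOVL6 rose, against 3.67% of genes called. SCD was called between these doses too with DESeq2 (adjusted p 0.0326) and in 1 edgeR fit of all 60 libraries (0.0186), and FADS2 was called at the high dose against vehicle under the same 2 settings (0.0469 and 0.0275). The high-dose call of ACACA was lost without any 1 of the 6 libraries compared (adjusted p 0.0519 to 0.201). Without replicate 2 of the medium dose, which had 975 CPM of SCD and 211 CPM of ACACA against 1102 and 1148 CPM and 257 and 266 CPM in the others, 3 members were called at that dose. ACACA (0.0175) and FADS1 (8.91e-04) joined SCD there, while leaving out any other library of that comparison took the SCD call away (0.0933 to 0.211). At the low dose, SCD was lost without vehicle replicate 3 (0.0841) and FADS1 without vehicle replicate 2 or 3 or ginger replicate 2 (0.0641 to 0.0989). The SCD call at the low dose, and both rises from the low to the high dose, were kept without low-dose replicate 2. Of the rises between doses, FADS1 was lost without any high-dose library or without low-dose replicate 1 or 3 (0.0624 to 0.135), and ELOVL6 without high-dose replicate 2 or low-dose replicate 1 (0.109 and 0.0906) or without the filter (0.0639).

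With dried ginger at the same 500 µg/mL 5 members were below vehicle, ACLY, FASN, SCD, FADS2 and ELOVL5. FADS1 and ELOVL6 were above it. Of all genes 39.2% were called and 19.0% called lower, and the median was -0.13 for the members against 0.009 for all genes. At 100 µg/mL no member fell and 3 rose (SCD, FADS1 and ELOVL6) against 6.15% of genes called, and at 20 µg/mL SCD and FADS1 rose against 3.6%. SCD was thus above vehicle at the low and medium doses and below it at the high dose. High against low dose, 7 members fell (ACLY, ACACA, FASN, SCD, FADS2, ELOVL5 and ACSL3) and none rose, against 32.8% of genes called and 16.0% called lower. The high-dose rise of FADS1 was lost without vehicle replicate 2 or 3 or ginger replicate 2 or 3 (adjusted p 0.0994 to 0.118) or with RLE size factors (0.0543), and the fall of ACACA from the low dose without high-dose replicate 1 or low-dose replicate 3 (0.0663 and 0.0923). At the medium dose, SCD was lost without vehicle or ginger replicate 3 (0.0608 and 0.0552), ELOVL6 without vehicle or ginger replicate 2 (0.0626 and 0.0639), and FADS1 without replicate 2 or 3 of either (0.0617 to 0.083). At the low dose, SCD was lost without vehicle or ginger replicate 3 (0.0772 and 0.0661), and FADS1 without vehicle replicate 2 or 3 or ginger replicate 1 or 3 (0.0905 to 0.14). The summed level of the 5 epithelial markers was 5597 to 5834 CPM in high-dose dried ginger, 6659 to 6687 in high-dose fresh ginger and 8334 to 8690 in vehicle. That of the 16 markers of other cell types was 27.4 to 29, 27.5 to 32.2 and 41.7 to 44.7 CPM. The part of either in the changes of the members was not tested.

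The 2 gingers differed directly in 8 of the 10 members at 500 µg/mL, all lower in dried than in fresh ginger. Of all genes 22.5% were called between them and 11.3% were called lower. FADS2 was lower by 0.56 on the log2 scale (-0.56 ± 0.04, edgeR adjusted p 8.00e-12), and SCD differed by -0.53 ± 0.05 (4.53e-10). FASN differed by -0.41 ± 0.05 (1.09e-07), ACLY by -0.19 ± 0.04 (0.0012) and ACACA by -0.23 ± 0.06 (0.0106). FADS1 (-0.23 ± 0.05), ELOVL5 (-0.24 ± 0.04) and ACSL3 (-0.24 ± 0.04) moved by similar amounts. For ELOVL6 the libraries did not overlap but the test was not passed (-0.1 ± 0.04, adjusted p 0.0969), and ACSS2 differed by 0.09 ± 0.07. ACACA differed no longer without dried ginger replicate 1 (0.0537), and ELOVL6 was called without dried ginger replicate 3 (0.0469).

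**Figure D2:**
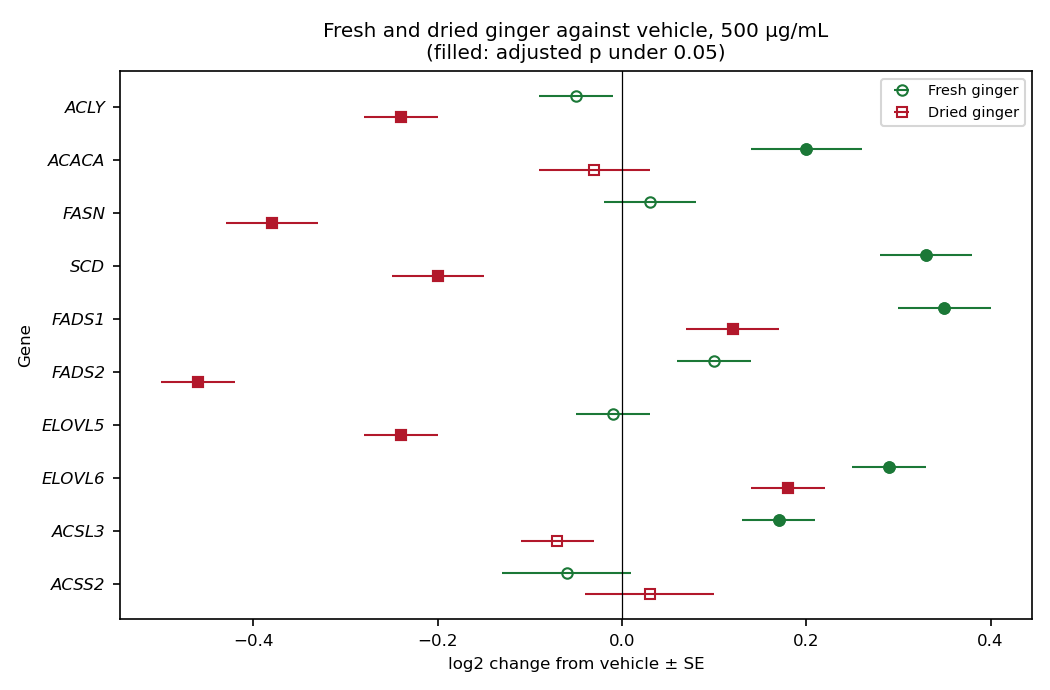
Log2 change from vehicle with its standard error (horizontal axis) of each member (vertical axis) in fresh and dried ginger at 500 µg/mL, n = 3 libraries each, with filled symbols where edgeR's adjusted p was under 0.05. Dried ginger lies left of fresh ginger for all members but ACSS2, with SCD at -0.20 and 0.33 and FADS2 at -0.46 and 0.1.

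Few members differed from vehicle with Pinellia. At 500 µg/mL ACACA, SCD and FADS1 rose against 8.93% of genes called. ACACA alone rose at 100 µg/mL (7.17%) and 20 µg/mL (5.51%). The high and low doses of Pinellia differed in no member and in 0.0663% of genes, 11 of 16582. The high-dose call of SCD was lost without vehicle replicate 3 or Pinellia replicate 1 (adjusted p 0.0551 and 0.105), and that of FADS1 without vehicle replicate 2 or 3 or any 1 Pinellia library (0.0716 to 0.16), without the filter (0.0919) or in 1 fit of all 60 libraries (0.0757). ACACA at the low dose was lost without vehicle replicate 3 or Pinellia replicate 2 or 3 (0.321, 0.17 and 0.125), without the filter (0.0753) or in 1 fit of all 60 libraries (0.17).

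**Figure D3:**
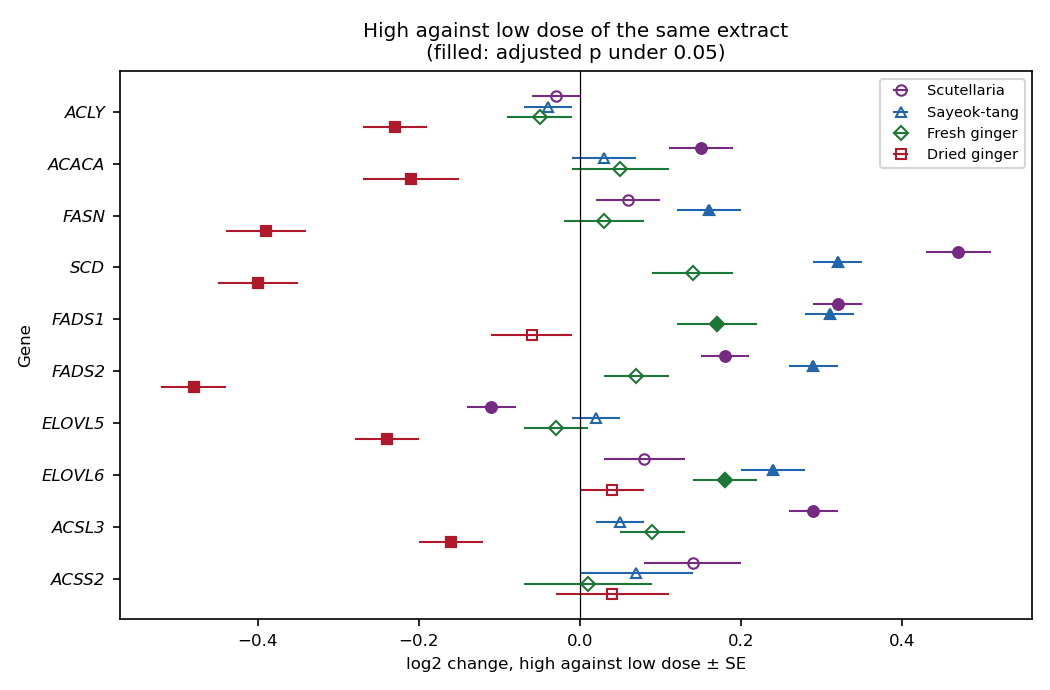
Log2 change with its standard error from the low to the high dose (horizontal axis) of each member in 4 extracts, with filled symbols where edgeR's adjusted p was under 0.05; the vehicle libraries' levels do not enter. Scutellaria, Sayeok-tang and dried ginger separate most at SCD (0.47, 0.32 and -0.40), while ACSS2 passed the test in no extract.

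Of the desaturases, SCD, the enzyme that makes oleate and palmitoleate, had the widest range. Vehicle libraries held 963, 959 and 912 CPM. High-dose Scutellaria held 1502, 1585 and 1461, high-dose Sayeok-tang 1309, 1392 and 1273, and high-dose fresh ginger 1208, 1197 and 1167. Each of these 3 groups lay wholly above vehicle. The doses differ, so the groups are set side by side only. The changes were 0.68 ± 0.04 (edgeR adjusted p 7.44e-18), 0.48 ± 0.03 (3.27e-14) and 0.33 ± 0.05 (6.91e-06), at 190, 500 and 500 µg/mL. High-dose dried ginger held 810, 824 and 843 CPM, wholly below vehicle (-0.20 ± 0.05, adjusted p 9.19e-04), but 1091, 1046 and 1133 CPM at its low dose. Group means of the other 14 replicated groups ran from 966 to 1098 CPM with spreads of up to 89.3 CPM, so most neighbours in that stretch did not differ beyond their spread.

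FADS1, a front-end desaturase late in the path to arachidonate and eicosapentaenoate, held 324, 311 and 307 CPM in vehicle. It held 432, 439 and 429 CPM in high-dose Sayeok-tang and 445, 435 and 417 CPM in high-dose Scutellaria, up by 0.46 ± 0.03 in each (edgeR adjusted p 4.58e-14 and 2.94e-14). In high-dose fresh ginger it held 407, 394 and 399 CPM (0.35 ± 0.05, 3.99e-06). All of these libraries were above every vehicle library, as were the 330, 346 and 348 CPM of high-dose dried ginger (0.12 ± 0.05, 0.0382), where SCD and FADS2 fell. At the low and medium doses of the extracts with replicates, group means stayed between 321 and 357 CPM.

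FADS2, the desaturase that opens the polyunsaturated pathway, held 424, 401 and 415 CPM in vehicle. High-dose Sayeok-tang held 514, 522 and 496 CPM (0.3 ± 0.03, edgeR adjusted p 3.32e-09) and high-dose Scutellaria 476, 483 and 472 CPM (0.21 ± 0.03, 1.07e-06), both wholly above vehicle. High-dose dried ginger held 295, 304 and 303 CPM, wholly below it (-0.46 ± 0.04, 1.28e-10). At no medium or low dose was FADS2 called, where group means ran from 395 to 422 CPM. FADS1 and FADS2, head to head on chromosome 11, were thus called in opposite directions in high-dose dried ginger, the FADS1 call being the one lost without 1 of several libraries.

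**Figure D4:**
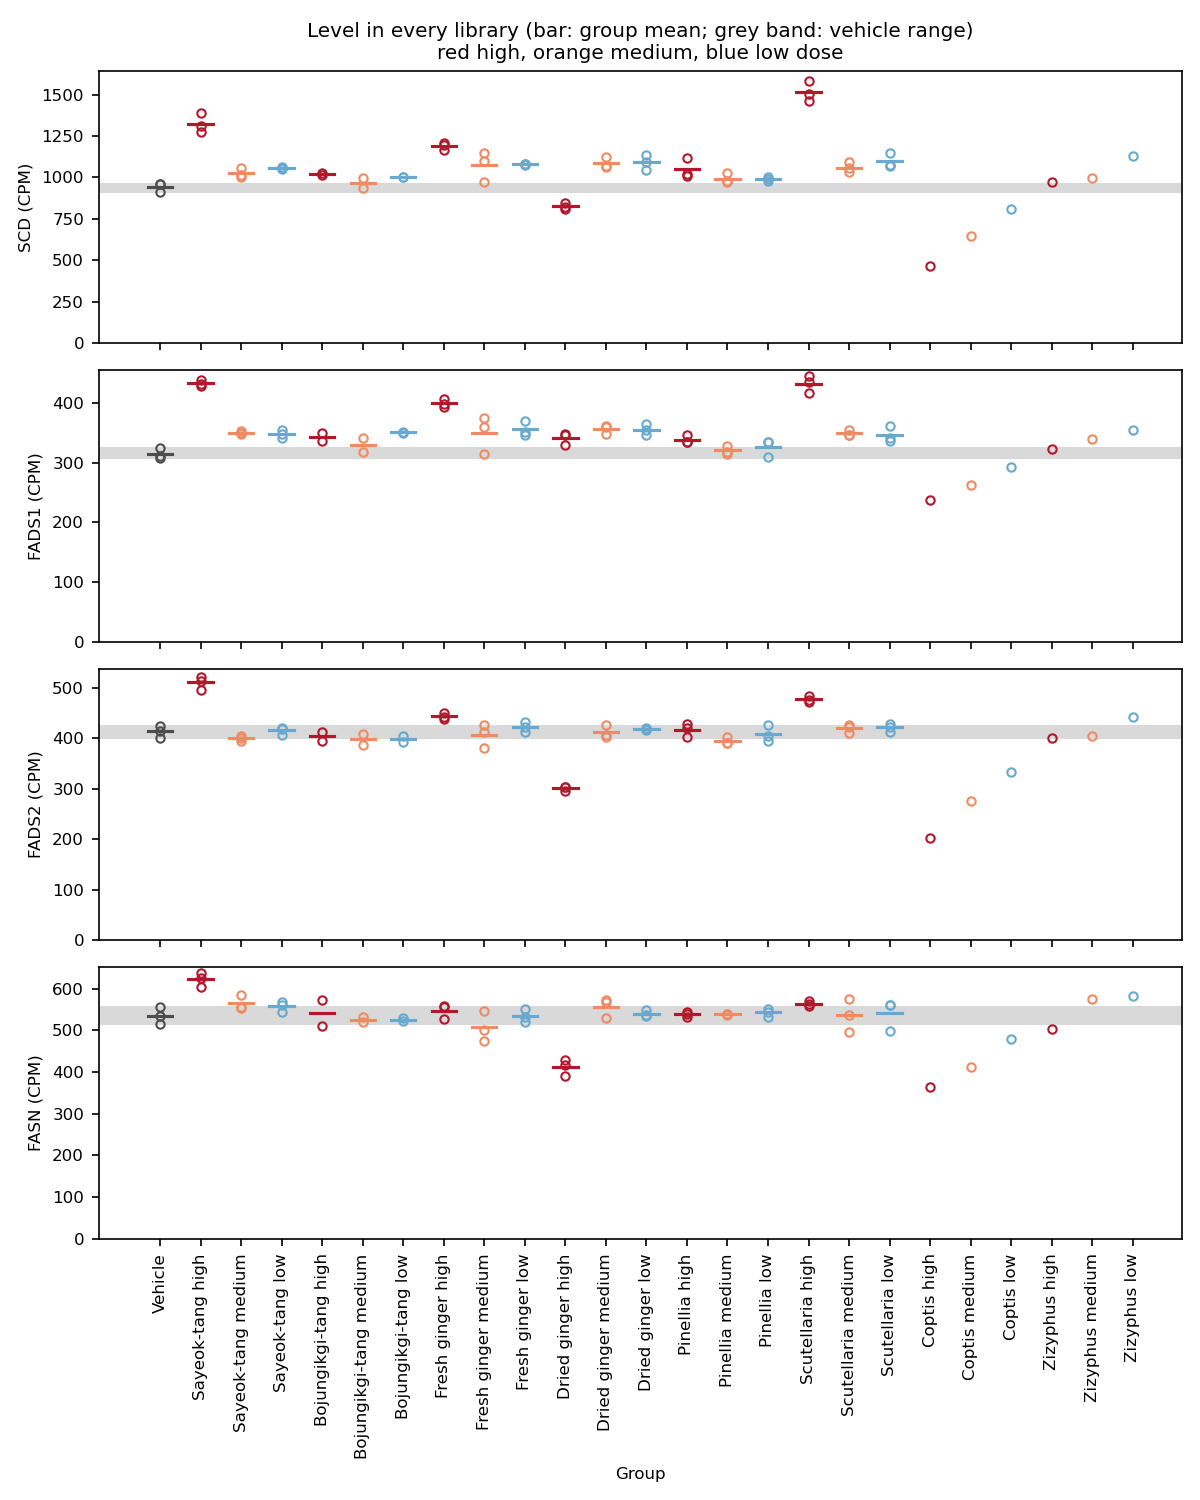
Level in CPM (vertical axes, from 0) of SCD, FADS1, FADS2 and FASN in each of the 60 libraries by group (horizontal axis); circles are libraries, bars are group means, the grey band is the range of the 3 vehicle libraries, and red, orange and blue mark high, medium and low doses. High-dose Sayeok-tang and Scutellaria stand above the band for SCD, FADS1 and FADS2, high-dose dried ginger falls below it for SCD, FADS2 and FASN, and Coptis falls with dose in all 4.

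ACACA, the carboxylase that makes malonyl-CoA, held 235, 237 and 213 CPM in vehicle, the third library being the low one. High-dose Scutellaria held 280, 302 and 287 CPM (0.34 ± 0.04, edgeR adjusted p 2.57e-10) and high-dose Sayeok-tang 258, 263 and 262 CPM (0.19 ± 0.04, 2.42e-04), both clear of vehicle. High-dose fresh ginger reached 265, 259 and 261 CPM (0.2 ± 0.06, 0.0427), and high-dose Pinellia 267, 255 and 252 CPM (0.18 ± 0.04, 0.00127). In every tested group except high-dose dried ginger (215, 222 and 232 CPM) the mean was above that of vehicle, at 240 to 290 CPM.

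FASN, the synthase itself, moved less often. Its vehicle libraries held 556, 535 and 515 CPM. High-dose Sayeok-tang held 626, 638 and 604 CPM (0.21 ± 0.04, edgeR adjusted p 3.50e-05) and high-dose dried ginger 418, 428 and 391 CPM (-0.38 ± 0.05, 1.70e-07), on either side of vehicle with no overlap. In high-dose Scutellaria, where ACACA and SCD had their largest values, FASN held 558, 571 and 563 CPM all above the vehicle range, and was not called (0.07 ± 0.04, 0.171). In high-dose fresh ginger it held 558, 555 and 527 CPM (0.03 ± 0.05, 0.742), overlapping vehicle.

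The elongases behaved differently from each other. ELOVL6, which lengthens palmitate towards stearate, held 36.1, 33.8 and 35.2 CPM in vehicle. It rose to 44.1, 43.9 and 42.9 CPM in high-dose Sayeok-tang (0.31 ± 0.04, edgeR adjusted p 1.08e-06), 42.0, 43.9 and 42.0 in high-dose fresh ginger (0.29 ± 0.04, 5.42e-05) and 41.6 and 40.8 in high-dose Bojungikgi-tang (0.23 ± 0.05, 0.00319). High-dose dried ginger, with 39.0, 38.5 and 41.6 CPM (0.18 ± 0.04, 0.00136), and high-dose Scutellaria, with 40.6, 40.8 and 37.8 CPM (0.18 ± 0.05, 0.00189), were also wholly above vehicle. ELOVL5, which lengthens polyunsaturated chains, held 166, 164 and 159 CPM in vehicle and 133, 136 and 143 CPM in high-dose dried ginger (-0.24 ± 0.04, 1.03e-05). In high-dose Scutellaria it held 148, 158 and 157 CPM, just below the vehicle range (-0.08 ± 0.03, 0.0448), and in the other 16 tested groups it was not called, with means from 159 to 166 CPM.

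ACSL3, an acyl-CoA synthetase of the endoplasmic reticulum and lipid droplets, held 212, 223 and 216 CPM in vehicle. It reached 284, 286 and 270 CPM in high-dose Scutellaria (0.37 ± 0.03, edgeR adjusted p 1.95e-12) and 247, 236 and 251 CPM in high-dose fresh ginger (0.17 ± 0.04, 0.00222), both wholly above vehicle. In high-dose Sayeok-tang it held 230, 232 and 230 CPM (0.08 ± 0.03, 0.0394), a smaller shift than in either.

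The acetyl-CoA suppliers had 1 call each against vehicle. ACLY held 756, 754 and 723 CPM in vehicle and fell only in high-dose dried ginger, to 630, 619 and 649 CPM (-0.24 ± 0.04, edgeR adjusted p 3.94e-05). Its means in the 17 other tested groups were 708 to 787 CPM, and its 746, 740 and 750 CPM in high-dose Sayeok-tang lay within the vehicle range. ACSS2 held 16.8, 16.3 and 17.2 CPM in vehicle and rose only in high-dose Scutellaria, to 20.2, 18.4 and 18.3 CPM (0.18 ± 0.06, 0.0184). Its other tested means were 15.9 to 17.9 CPM.

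Coptis and Zizyphus had 1 library per dose and so no test; a member was counted when its ratio to the vehicle mean, after adding 0.5 CPM to each, was at least 1.5-fold and its value lay outside the vehicle range. Shares and medians of genes for Coptis and Zizyphus were taken over genes averaging at least 5 CPM in the libraries compared, 10959 for high-dose Coptis. All 10 members were below the vehicle range in the 110 µg/mL Coptis library, as were 42.9% of these genes. The median log2 ratio was -0.44 for the members and -0.02 for these genes. SCD stood at 467 CPM at 110 µg/mL, 646 at 22 µg/mL and 810 at 4.4 µg/mL, log2 ratios of -1.02, -0.55 and -0.22. FADS2 stood at 202, 275 and 333 CPM (-1.03, -0.59 and -0.31), FASN at 365, 412 and 479 CPM (-0.55, -0.38 and -0.16), and ELOVL5 at 109, 132 and 145 CPM (-0.57, -0.30 and -0.16). Each of these 4 was lower in the library with the higher dose at every step. FADS1 followed with 237, 262 and 292 CPM, ACSL3 with 156, 190 and 204 CPM, ACLY with 601, 665 and 712 CPM, and ACACA with 192, 221 and 237 CPM. Mitochondrial transcripts took 9.92, 15.92 and 14.98% of counts in these libraries, against 8.58 to 9.38% in vehicle. The summed epithelial markers stood at 6201, 6731 and 7366 CPM, all below vehicle and lower at each higher dose, like most members. The part of either in the values was not tested. ELOVL6 (33.2, 36.2 and 34.6 CPM) and ACSS2 (16.1, 18.0 and 15.8 CPM) stayed within 0.1 of vehicle on the log2 scale. SCD and FADS2 passed the fold at the high dose (2 of 10 members, against 7.27% of genes), FADS2 alone at the medium dose (2.79%) and no member at the low dose (0.869%). FADS2 at the medium dose did not pass without vehicle replicate 1 or 3 or with a pseudocount of 2 CPM, and 3 members passed at the high dose without vehicle replicate 3.

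The members stood near vehicle in Zizyphus. No member passed the fold at 500, 100 or 20 µg/mL, where 0.192%, 0.165% and 0.211% of genes did. Above the vehicle range, without reaching the fold, lay 3, 8 and 8 members at these doses, against 26.2%, 28.9% and 31.0% of genes. Below it lay 2, 0 and 1 members, and the share of genes below it was not computed for Zizyphus. SCD stood at 970, 996 and 1131 CPM, the last the farthest from vehicle, at a log2 ratio of 0.26 in the 20 µg/mL library.

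**Figure D5:**
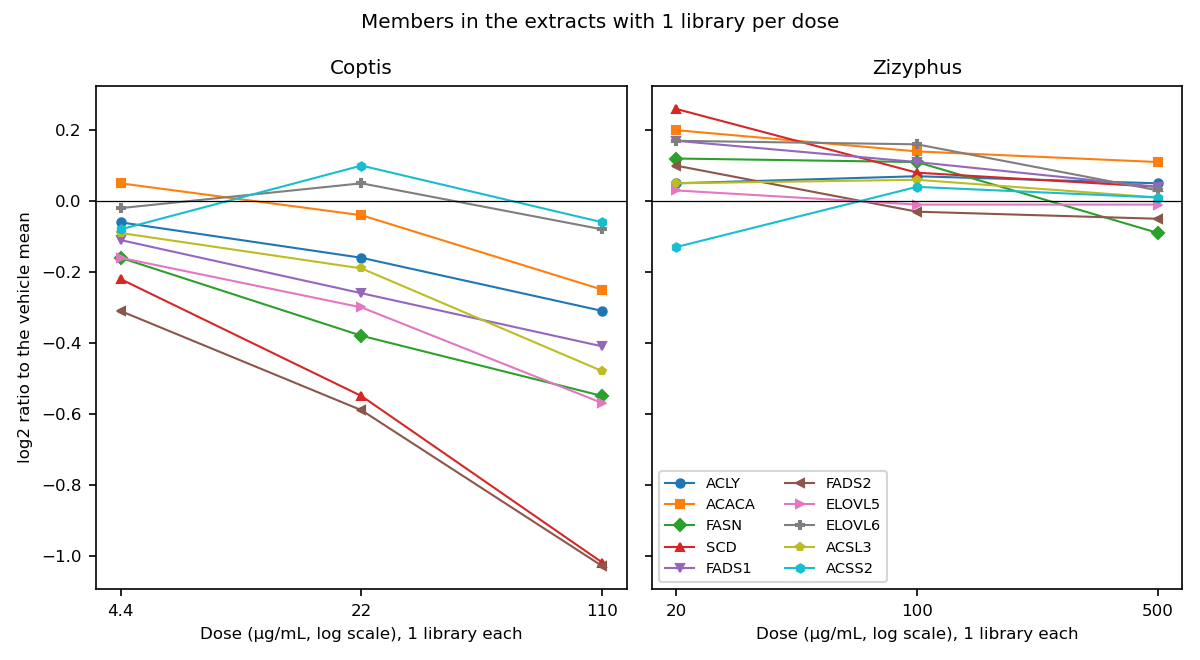
Log2 ratio of each member to the vehicle mean (vertical axis) against dose (horizontal axis, log scale) in Coptis and Zizyphus, 1 library per point and no test; lines join libraries of 1 extract. In Coptis, SCD and FADS2 drop to -1.02 and -1.03 at 110 µg/mL while ELOVL6 and ACSS2 stay near 0, and in Zizyphus all points lie between -0.13 and 0.26.

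Other genes of the pathway were counted from 6 lists of 60 genes in all. The share of all genes called, against which these counts are to be read, was 40.3% in high-dose Scutellaria, 39.2% in dried ginger, 18.9% in Sayeok-tang and 13.4% in fresh ginger. Among 13 regulatory genes, not all of them transcription factors, 12 were tested, and 7 were higher and none lower in high-dose Scutellaria. INSIG1, which holds SREBP back, rose by 0.64 ± 0.05 (edgeR adjusted p 8.81e-14), MID1IP1, an activator of acetyl-CoA carboxylase, by 0.42 ± 0.04, SREBF1, which encodes SREBP-1, by 0.35 ± 0.04, and SREBF2 by 0.28 ± 0.04. In high-dose Sayeok-tang 4 were higher and none lower: INSIG1 (0.4 ± 0.04), SREBF2 (0.28 ± 0.03), SREBF1 (0.15 ± 0.03) and MID1IP1 (0.17 ± 0.04). Fresh ginger had 3 higher, led by INSIG1 (0.21 ± 0.05), and dried ginger 1 higher, MID1IP1 (0.28 ± 0.05), and 2 lower, INSIG1 (-0.40 ± 0.05) and SREBF2 (-0.10 ± 0.04). INSIG1 was also lower in dried than in fresh ginger (-0.61 ± 0.05, adjusted p 7.24e-10). In the Coptis libraries its log2 ratios were -1.32, -0.99 and -0.68 from high to low dose.

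Of 8 genes of the cholesterol branch, which SREBP-2 drives, 8 of 8 fell in high-dose dried ginger. HMGCS1 (-0.61 ± 0.04) and IDI1 (-0.59 ± 0.05) fell by most. The same 8 were lower than in fresh ginger, against 22.5% of all genes called and 11.3% called lower between the gingers. High-dose fresh ginger itself had 1 higher and 0 lower against vehicle. There were 6 higher and none lower in high-dose Sayeok-tang (DHCR7 by 0.43 ± 0.04) and 5 higher in high-dose Scutellaria (DHCR7 by 0.2 ± 0.04).

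The remaining carboxylase, elongation and desaturation genes, 14 in all (13 tested in the fit with Scutellaria), were called in both directions. In high-dose dried ginger 4 rose and 4 fell: ACACB, the mitochondrial carboxylase (0.5 ± 0.07), and FADS3 (0.6 ± 0.08) rose while HACD2 (-0.35 ± 0.04) and TECR (-0.42 ± 0.06), which complete the elongation cycle, fell. In high-dose Scutellaria HACD3 (-0.28 ± 0.03), DEGS1 (-0.29 ± 0.03) and HACD2 (-0.27 ± 0.03) fell and ACACB rose (0.41 ± 0.06), within 4 higher and 6 lower. High-dose Sayeok-tang had 3 higher and 3 lower. Of 8 genes that supply acetyl-CoA and NADPH, IDH1, a cytosolic source of NADPH, rose in high-dose Scutellaria (0.46 ± 0.03), dried ginger (0.34 ± 0.04), fresh ginger (0.24 ± 0.04) and Sayeok-tang (0.17 ± 0.03). In high-dose dried ginger SLC25A1, the citrate carrier that feeds ACLY, was lower (-0.30 ± 0.06), and the list had 2 higher and 3 lower. The same list had 1 higher and 2 lower in high-dose Sayeok-tang, 1 higher and 0 lower in fresh ginger, and 2 higher and 0 lower in Scutellaria. Of 8 esterification genes, LPIN1, a phosphatidate phosphatase, rose in high-dose Scutellaria (0.44 ± 0.04), fresh ginger (0.37 ± 0.04) and Sayeok-tang (0.35 ± 0.04) and fell in dried ginger (-0.17 ± 0.04). The list as a whole had 2 higher and 4 lower in high-dose Scutellaria, 1 higher and 1 lower in fresh ginger and in Sayeok-tang, and 1 higher and 2 lower in dried ginger. Of 9 further acyl-CoA synthetases, 7 were tested, and ACSL4, which prefers polyunsaturated chains, rose in high-dose Scutellaria (0.32 ± 0.04) and Sayeok-tang (0.29 ± 0.04). In Scutellaria 2 of these 7 were higher and 3 lower, SLC27A4 (-0.21 ± 0.05) and SLC27A2 (-0.25 ± 0.05) among the latter, and in Sayeok-tang 2 were higher and 1 lower.

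Likeness was described across the 25 group means, 6 of them single libraries, whose set numbers and extracts move together. As a description, Pearson's r of log2 CPM was 0.97 for SCD with FADS2, 0.96 with ACSL3, 0.95 with FADS1 and 0.94 with ACACA. For ACSS2 it was between -0.03 and 0.26 with the other 9, and for ELOVL6 at most 0.78. Among 10963 genes, those most like SCD included STARD4 (0.977) and INSIG1 (0.964), and those most like FADS2 included DHCR7 (0.98) and MVK (0.971). FADS1 was most like MSMO1 (0.949), ACSL3 like STARD4 (0.947), FASN like HMGCS1 (0.942), ACACA like SREBF1 (0.92) and ELOVL5 like ADIPOR2 (0.971). The nearest genes to ACLY, ELOVL6 and ACSS2 were NPTX1 (0.941), SLFN11 (0.844) and ZNF17 (0.725).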

How the data were processed

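mRNA was sequenced as 100 bp pairs after a directional kit, per the labels' protocols. The authors deposited expected counts per gene, not normalised; per the submitters' processing notes the tools were FastQC 0.11.9, Trim Galore 0.6.5, STAR 2.7.3a and RSEM 1.3.3 on hg38 (GRCh38), and the annotation release and strand setting were not given in the sources used here. Of 269 value columns, 209 matched no sample described here and were not used. Of 60675 IDs, 57055 had a symbol, and positions and lengths came from GENCODE 29. Of nonzero values 24.4% were not whole and were rounded. Each of 3 fits held both extracts of 1 set number and the 3 vehicle libraries: filterByExpr (minimum count 10), TMM, edgeR 4.0.16 quasi-likelihood F-test (robust) in R 4.3.3, Benjamini-Hochberg adjustment over all genes of each of 26 comparisons, called at an adjusted p under 0.05. Errors are the fit's standard errors for log2 changes and SDs for CPM. The procedure was tested on simulated data. Likeness and the single-library shares were computed over genes of at least 5 CPM. No replicate pair agreed within sampling noise (51 pairs, chi-square per gene 1.81 to 12.63). Members and gene lists were chosen with earlier results of these data known. All members are named, and at most 4 genes per list and comparison, those called with the lowest p; of the 3 genes most like each member not all are printed, and some genes the rule would name are not reported here. Alternatives were DESeq2 1.42.0, RLE size factors, no filter, 1 fit of all 60 libraries, the replicate block, leaving out each library, and for single libraries a pseudocount of 2 CPM and a lower fold.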

Additional observations from a re-analysis of the deposited data

Results flagged for a closer look

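SCD moved in opposite directions in the 2 ginger extracts at 500 µg/mL, higher than vehicle in fresh and lower in dried ginger, and the difference between them was itself tested (-0.53 on the log2 scale, edgeR adjusted p 4.53e-10). All 3 dried ginger libraries (810, 824 and 843 CPM) were below all 3 fresh ginger libraries (1208, 1197 and 1167 CPM).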

How the results depend on the processing

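No member changed direction where called. Of 260 member tests, 66 were called higher and 22 lower, against 65 and 22 with RLE size factors, 64 and 20 without the filter on low counts, 71 and 22 with DESeq2, 71 and 21 in 1 fit of all 60 libraries, and 67 and 22 with the replicate block. The replicate numbers did not pair the samples (correlations of deviations from -0.05 to 0.1); the block added the SCD call in high-dose Bojungikgi-tang (adjusted p 0.0459) and lost none. Beside the calls named with the results, the fit of all libraries added ACACA in low fresh ginger and in medium and low dried ginger (edgeR adjusted p 0.036, 0.0293 and 0.0182), as did leaving out the filter (0.0232, 0.0185 and 0.00769). It also added ACSL3 in medium and low dried ginger (0.0349 and 0.0371), ELOVL6 in low dried ginger (0.0229) and high Pinellia (0.0437), and FADS1 in medium fresh ginger (0.0113), the last also with DESeq2 (0.0353). In 1 fit of all 60 libraries, members called against vehicle were 2 for medium Sayeok-tang, 1 for high Bojungikgi-tang, 2 for medium fresh ginger, 5 each for medium and low dried ginger, and 0 for low Pinellia. Without the filter they were 1 for high Bojungikgi-tang, 0 for low Pinellia and 1 for fresh ginger high against low. With DESeq2 there were 2 for medium fresh ginger. In Coptis a fold lower than 1.5 gave 6 and 3 of the 10 members at the high and medium doses. The share of all genes past that lower fold was not computed, so whether these counts are unusual cannot be told. A pseudocount of 2 CPM gave 0 members at the medium dose.

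Leaving out 1 library moved the number called against vehicle at the high, medium and low dose to 6 to 7, 2 to 4 and 2 to 3 for Sayeok-tang, 0 to 3, 0 to 1 and 0 to 1 for Bojungikgi-tang, 4 to 4, 0 to 3 and 0 to 2 for fresh ginger, and 6 to 7, 1 to 3 and 0 to 2 for dried ginger. For Pinellia these were 1 to 3, 1 to 1 and 0 to 1, for Scutellaria 6 to 8, 3 to 4 and 2 to 3, and for Coptis past the fold 2 to 3, 0 to 1 and 0. High against low doses gave 5 for Sayeok-tang, 0 for Bojungikgi-tang and Pinellia, 0 to 2 for fresh ginger, 6 to 7 for dried ginger and 5 to 6 for Scutellaria, and the comparisons between extracts gave 3 to 4 for the formulas and 7 to 9 for the gingers.

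Over all genes, called numbers moved by over 1.5 times as follows. Against vehicle, medium fresh ginger went from 128 to 299 without the filter, 273 with DESeq2, 232 with the replicate block and 462 in the fit of all libraries. That fit also moved high, medium and low Bojungikgi-tang from 623, 325 and 1160 to 367, 107 and 759, low fresh ginger from 1077 to 2054, medium and low dried ginger from 1022 and 599 to 1800 and 1403, and fresh ginger high against low from 611 to 1010. Without the filter, medium Bojungikgi-tang went to 544, its high against low dose from 119 to 193 and low dried ginger to 975. Pinellia high against low went from 11 to 58 without the filter, 29 with DESeq2 and 21 in the fit of all libraries. The share of called genes that were higher moved by over 10 percentage points in 6 comparisons with vehicle. It went from 34.2% to 23.8% with DESeq2 and 22.4% in the fit of all libraries for medium Bojungikgi-tang, and from 29.7% to 40.1% without the filter and 39.8% in that fit for medium fresh ginger. Without the filter it also went from 43.1, 39.6 and 37.2% to 31.1, 29.5 and 24.9% for high, medium and low Pinellia and from 43.5% to 28.5% for low Scutellaria. The cause was not tested.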

Other observations

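Summed over the 10 members, the level was 3511 to 3690 CPM in the 3 vehicle libraries, 4439 to 4638 CPM in high-dose Scutellaria, 4263 to 4450 CPM in high-dose Sayeok-tang and 3092 to 3182 CPM in high-dose dried ginger. The single Coptis libraries held 2377, 2858 and 3262 CPM from the high to the low dose. DGAT2, which makes triglyceride and is a low-level gene here (2.91 CPM in vehicle), fell in high-dose fresh ginger (-0.67 ± 0.16, edgeR adjusted p 0.005) and was higher in dried than in fresh ginger (0.68 ± 0.16, 0.00201).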
